A study of Rattus norvegicus with 12 samples.

Results

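Cytosolic ribosomal protein genes encode the protein subunits of the ribosome that translates messenger RNA in the cytoplasm. They were represented here by the probe sets that carry exactly 1 gene symbol, where that symbol is Rpl, Rps or Rplp followed by a digit, or Rpsa, with the Rps6k kinases left out. This gave 44 of 4736 named genes, measured by 64 of 8740 probe sets. Of these genes, 30 belong to the large subunit (43 probe sets) and 14 to the small subunit (21 probe sets). A further 40 probe sets carry several symbols that include a ribosomal protein, and no gene was named from them. RNA was taken from whole livers of male Sprague-Dawley rats that weighed 150 g at the start and were overfed (17% of total calories) during 21 days by way of a gastric cannula (total enteral nutrition). The 4 diets were 5% corn oil, 70% corn oil, 5% olive oil and 70% olive oil, isocaloric with fat exchanged for carbohydrate, so that more fat also meant less carbohydrate. Corn oil is rich in polyunsaturated and olive oil in monounsaturated fatty acids. Each of the 12 Affymetrix arrays, 3 per diet, held a pool of liver RNA. How many rats went into a pool is unknown here, and p-values rest on the spread between pools alone.

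A cytosolic ribosome joins a large and a small subunit, each built of ribosomal RNA and of many small, abundant proteins that the cell makes in matched amounts. Vertebrate messenger RNAs for these proteins typically begin with a C followed by a run of pyrimidines, the terminal oligopyrimidine tract, through which mTOR signalling and the RNA-binding protein Larp1 set their translation after feeding. That control acts largely on translation, whereas an array measures the amount of messenger RNA. Many ribosomal protein genes also have near-identical processed pseudogenes, so a probe set can detect more than the transcript it is named for. The members include 3 probe sets whose symbol is annotated as a pseudogene (Rps2-ps1, with a pair of probe sets, and Rps4x-ps9) and copies such as Rpl19l4 and Rplp1l3, and their gene of origin is uncertain.

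A sequence feature at the start of these genes, which the choice of members did not use, is shown first. RefSeq start sites (build GRCr8) were found for 37 of the 44 genes. In the 30 bases that run from 10 before the annotated start through the first 20 transcribed bases, a run of at least 8 pyrimidines (C or T, transcribed strand only) occurred in 19 of these 37 genes (51.4%), against 3601 of 33469 genes in the whole table (10.8%). The mirror feature, a run of at least 8 purines, occurred in 1 of the 37 (2.70%) and in 13.2% of all genes. A start on C with 4 further pyrimidines directly at the annotated first base was found in 11 of 37 (29.7%) against 2.63% of all genes. The 33469 genes include the members. They were not limited to the 4736 named genes of the array or to a type of gene, so they are not a matched background. The windows are printed 5′ to 3′ with the longest pyrimidine run in capitals, first for 5 members whose probe sets were called higher with corn oil at 5% fat and then for 3 that were called lower.
Rpl35: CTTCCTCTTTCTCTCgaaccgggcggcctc
Rpl31: atccctcgcgCCTTTCCTTTCCaacttggg
Rpl22: gcgCCCCCCTCCCTTTCTgcctcctctgcc
Rpl35a: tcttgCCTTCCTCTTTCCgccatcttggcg
Rpl11: CTTgaagcttgtttggtgctggggagcatc
Rps16: aaaatcggtcggggtggccccaagCTTTCC
Rpl6: TTacatcactagatggcgggtgaaaaggcg
Rps3: TTCagcggcgcgcggcagcaagatggcggt
These windows lie at chr3:43165902-43165931 (minus strand), chr9:49143101-49143130 (plus), chr5:168117951-168117980 (plus), chr11:81235002-81235031 (minus), chr5:153560783-153560812 (minus), chr1:92770648-92770677 (plus), chr12:41011671-41011700 (minus) and chr1:163195757-163195786 (minus), in the order printed. Each spans the start of the gene it is named for, that is the end of its promoter and the beginning of its first exon. Of the 15 members whose called probe sets were all higher with corn oil at 5% fat, 9 had the run, as did 0 of the 5 whose called probe sets were all lower and 10 of the other 17. This grouping ignores probe sets that were not called. Rpl3, Rpl6 and Rps3 of the lower group and Rpl11, Rpl24, Rpl26 and Rps6 of the higher group have another probe set of opposite sign. The printed windows are selected examples, and a link between the run and the direction was not tested. The counts describe annotated starts, and a window without the run says only that these letters are not in it.

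Every value is on the log2 scale and relative to the 12-array median of its probe set, because the deposited table is centred in that way. Levels can therefore not be compared between genes, and the liver identity of the samples could not be checked against absolute levels of hepatocyte markers. A difference is called where the adjusted p of limma, a linear model fitted to all probe sets, is under 0.05 after Benjamini-Hochberg adjustment over 8740 probe sets. Errors are standard errors (SE) of the model. With 3 arrays per diet, the precision is limited by how few arrays there are.

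The arrays of both oils also differed in a measure of RNA quality, which has to stand beside every oil difference. The 3'/5' index is the mean, over the actin and GAPDH control probe sets, of the value at the 3' end of the transcript minus the value at its 5' end, in log2. For corn oil it averaged 1.28 ± 0.28 (SD, n = 3) at 5% fat and 0.71 ± 0.48 (SD, n = 3) at 70% fat. For olive oil the averages were -0.36 ± 0.06 (SD, n = 3) and -0.35 ± 0.10 (SD, n = 3). The 6 corn oil arrays all lay above the 6 olive oil arrays, and the difference was 1.35 (exact permutation test, two-sided p = 0.00216, the smallest that 6 against 6 can give). Within corn oil the index differed by -0.56 between fat levels (exact permutation p = 0.2) and within olive oil by 0.018 (exact permutation p = 0.8), where 3 against 3 cannot give a p below 0.1. With the index as a covariate in the model, 0 of the 8740 probe sets was called in either oil contrast, and the median SE of the members went from 0.116 to 0.29 at 5% fat and to 0.205 at 70% fat. Oil and index cannot be told apart here.

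Some probe sets for liver cell type markers were called between the oils too. Among all probe sets, 10.1% were called higher and 9.36% lower at 5% fat, and 3.96% and 4.55% at 70% fat. At 5% fat, 6 of 16 probe sets for stellate cell and fibroblast markers were called higher with corn oil and 0 lower, while 4 of 10 for Kupffer cell and macrophage markers were called lower and 0 higher. The stellate calls were in Col1a1, Col1a2, Col3a1 and Dcn, and 5 of the 16 probe sets lay below 0. Of the Kupffer list 8 lay below 0 and 2 above, Clec4f among the latter at 0.19. Of 22 hepatocyte probe sets, 2 were higher and 6 lower. Over the 3 arrays of a diet, the median of the Kupffer list ran from -0.28 to 0.040 with 5% corn oil and from 0.094 to 0.34 with 5% olive oil, and that of the stellate list from -0.013 to 0.19 and from -0.20 to -0.092. Endothelial markers had 2 higher and 1 lower of 5, cholangiocyte markers 2 and 1 of 5, lymphocyte markers 1 and 0 of 8 and erythroid markers 0 and 0 of 5. Fewer were called at 70% fat, where the corresponding counts were 1 higher and 0 lower of 16, 0 higher and 1 lower of 10, and 0 higher and 2 lower of 22. At that fat level 7 of the 10 Kupffer probe sets lay above 0. The median difference of that list was 0.11, against -0.16 at 5% fat. The part that cell composition or RNA quality had in the ribosomal protein values was not tested. In whole tissue, fewer cells of a type and less RNA per cell cannot be told apart.

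**Figure D1:**
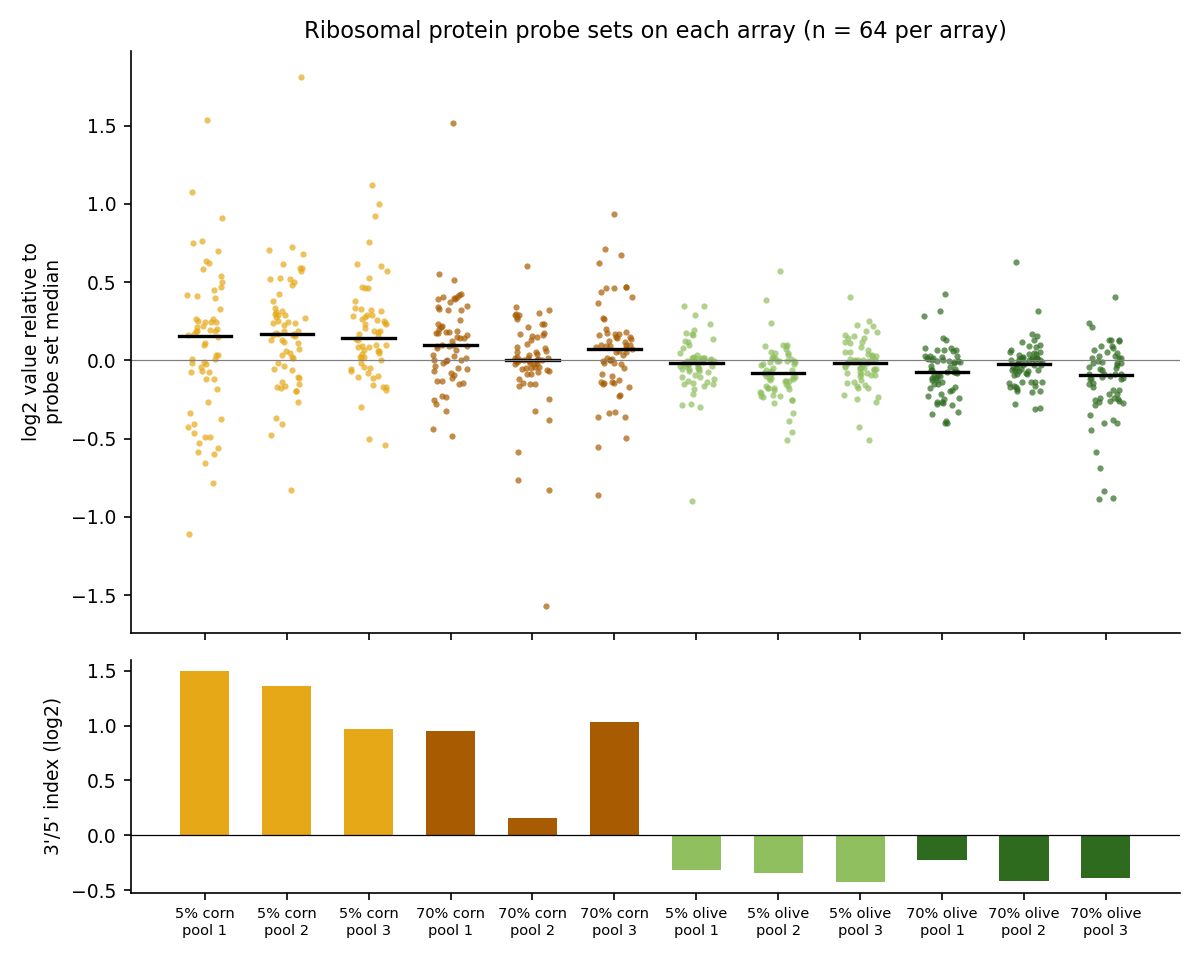
Top, the log2 value of each of the 64 ribosomal protein probe sets relative to its own median, on each of the 12 arrays (points), with the array's median over the members (black bars). Bottom, the 3'/5' index of the same arrays (bars, log2). The member median is 0.16, 0.17 and 0.15 on the 5% corn oil arrays and below 0 on every olive oil array, and among the corn oil arrays pool 2 of the 70% diet has both the lowest median, 0.0038, and the lowest index, 0.16.

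Seen over the whole set, the member median was highest on the 5% corn oil arrays. It was 0.16, 0.17 and 0.15 on pools 1 to 3 of 5% corn oil, 0.097, 0.0038 and 0.075 on those of 70% corn oil, -0.016, -0.084 and -0.014 on those of 5% olive oil and -0.073, -0.023 and -0.095 on those of 70% olive oil. The plot of member values by array shows that the 6 corn oil medians all lay above the 6 olive oil medians. Members also spread more widely on the corn oil arrays, with an SD across members of 0.29 to 0.47, than on the olive oil arrays, where it was 0.14 to 0.25. The same held for all 8740 probe sets on 4 of the 6 corn oil arrays, with SDs of 0.22 to 0.42 against 0.20 to 0.27 with olive oil. Members did not all follow each other. Over the 12 arrays, 44 probe sets correlated positively and 20 negatively with the mean of the other members (Pearson r from -0.88 for Rps16 to 0.94 for a Rps15 probe set). This is a description of arrays that fall into 2 clusters by oil.

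At 5% fat, ribosomal protein probe sets were more often higher than lower with corn oil. Of the 64 members, 24 were called higher and 8 lower with corn than with olive oil (37.5% and 12.5%), against 10.1% and 9.36% of all 8740 probe sets and 19.5% of them in either direction. The median difference of the members was 0.19 in log2, against 0.056 over all probe sets. The large subunit had 17 of 43 called higher and 4 lower, with a median of 0.24, and the small subunit 7 of 21 higher and 4 lower, with a median of 0.12. The arrays of both diets did not overlap for 32 members in the higher direction and 11 in the lower, where all probe sets gave 25.1% and 16.2%. The share of members called higher is thus above the background, and the share called lower is close to it. The 40 ribosomal probe sets that carry several symbols gave a more even split at this fat level, with 13 higher and 11 lower (32.5% and 27.5%).

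Among large subunit proteins higher with corn oil, Rpl35, which sits near the exit of the tunnel for the growing chain, had the smallest p. Its probe set M34331_g_at stood at 0.75, 0.62 and 0.61 on the 5% corn oil arrays and at -0.30, -0.33 and -0.27 on the 5% olive oil arrays. The groups were far apart, and the difference was 0.96 ± 0.08, or 1.95-fold (limma adjusted p = 4.12e-05). Rpl31, also at the tunnel exit, stood at 0.63, 0.50 and 0.38 with corn oil and at -0.15, -0.46 and -0.22 with olive oil. It differed by 0.78 ± 0.11 (adjusted p = 0.0006), again without overlap. Rpl22, a large subunit protein with a close paralog, stood at 0.40, 0.59 and 0.46 against -0.09, -0.18 and -0.18. Its difference was 0.63 ± 0.11 (adjusted p = 0.00239).

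Larger differences came with wider spread. Rpl19l4, a copy of the Rpl19 gene, stood at 1.54, 1.81 and 1.12 on the 5% corn oil arrays and at -0.90, -0.23 and -0.42 on the 5% olive oil arrays. Its difference of 2.01 ± 0.28, or 4.02-fold, was the largest of the members (adjusted p = 0.0006), while the probe set of Rpl19 itself lay at 0.055 (adjusted p = 0.888). Rpl17 was higher by 1.25 ± 0.39 (adjusted p = 0.0409), with 0.76, 0.68 and 0.996 against -0.28, -0.51 and -0.51. The call of Rpl17 was lost with trend and robust moderation and when any 1 of 9 arrays was left out. Rpl24, which bridges to the small subunit, was higher by 0.91 ± 0.19 on 1 of its probe sets, Rpl21 by 0.79 ± 0.25 on 1 of 4, Rpl30 by 0.76 ± 0.19 and Rpl35a by 0.76 ± 0.17. The call of Rpl21 ended when any 1 of 9 arrays was left out, and that of Rpl30 with any 1 of 2. Smaller differences that were called belonged to Rpl23, Rpl39, Rpl13a, Rpl11, Rpl36, Rpl26 and Rpl27, from 0.24 to 0.55.

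Small subunit proteins higher with corn oil at 5% fat included Rps6, the main substrate of the S6 kinases, and Rps9. Rps9 stood at 0.42, 0.32 and 0.29 on the 5% corn oil arrays and at -0.05, -0.24 and -0.08 on the 5% olive oil arrays, and differed by 0.46 ± 0.08 (adjusted p = 0.00189). Rps6 was higher by 0.47 ± 0.11 on probe set M29358_g_at (adjusted p = 0.00843), with 0.41, 0.29 and 0.31 against -0.17, -0.22 and -0.01. The second probe set of Rps6 lay at -0.14 ± 0.12 (adjusted p = 0.463). The annotated pseudogene Rps4x-ps9 was higher by 0.56 ± 0.17, Rps10 by 0.34 ± 0.09, Rps24 by 0.30 ± 0.09 and Rps15 by 0.28 ± 0.08 on 1 of its 3 probe sets. These 4 calls were each lost without any 1 of 4 to 6 arrays.

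The 8 probe sets that were lower with corn oil came from 8 genes of both subunits. Rpl6, a large subunit protein, stood at -1.11, -0.83 and -0.54 on the 5% corn oil arrays and at 0.35, 0.38 and 0.25 on the 5% olive oil arrays on probe set S71021_s_at. The groups did not overlap, and the difference was -1.15 ± 0.16, or 2.22-fold lower (adjusted p = 0.000506). The other probe set of Rpl6 lay on the opposite side, at 0.50 ± 0.20 (adjusted p = 0.107). Rps16, at the head of the small subunit, stood at -0.60, -0.48 and -0.50 against 0.02, -0.0016 and 0.12, a difference of -0.57 ± 0.12 (adjusted p = 0.00686). Rpl3, which reaches the centre where peptide bonds form, was lower by -0.51 ± 0.08 on 1 probe set (adjusted p = 0.00133) and stood at 0.37 ± 0.16 on the other (adjusted p = 0.136). Rps3, at the entry of the mRNA channel, was lower by -0.35 ± 0.08 on 1 of its probe sets and stood at 0.057 on the other. Rpl18 differed by -0.31 ± 0.09, a call lost without any 1 of 5 arrays.

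Rpl35, Rpl31, Rpl22, Rpl19l4, Rpl35a, Rpl36, Rpl13a, Rps9, Rpl6 and Rps16 are the 10 of 32 probe sets whose call at 5% fat held under every alternative except the index. Those alternatives were other normalizations, a trend with robust moderation, the pool number, 1 value per gene, the arrays of both groups alone and each array left out in turn. After a second quantile normalization 24 of the 32 calls held, and those lost were Rpl21, Rpl26, Rpl27, Rpl39, Rps10, Rps15, Rps24 and Rps4x-ps9, all higher with corn oil. With the index as a covariate 0 of the 32 were called, 23 kept their direction and 9 reversed. The count of 32 went to 19 without pool 1 or pool 2 of 5% corn oil. It went to 20 without pool 1 and to 17 without pool 2 of 5% olive oil, and to 17 genes with 1 value per gene. The share called over all probe sets in these fits is not given here. A loss particular to the members can therefore not be told from a loss over the whole array.

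**Figure D2:**
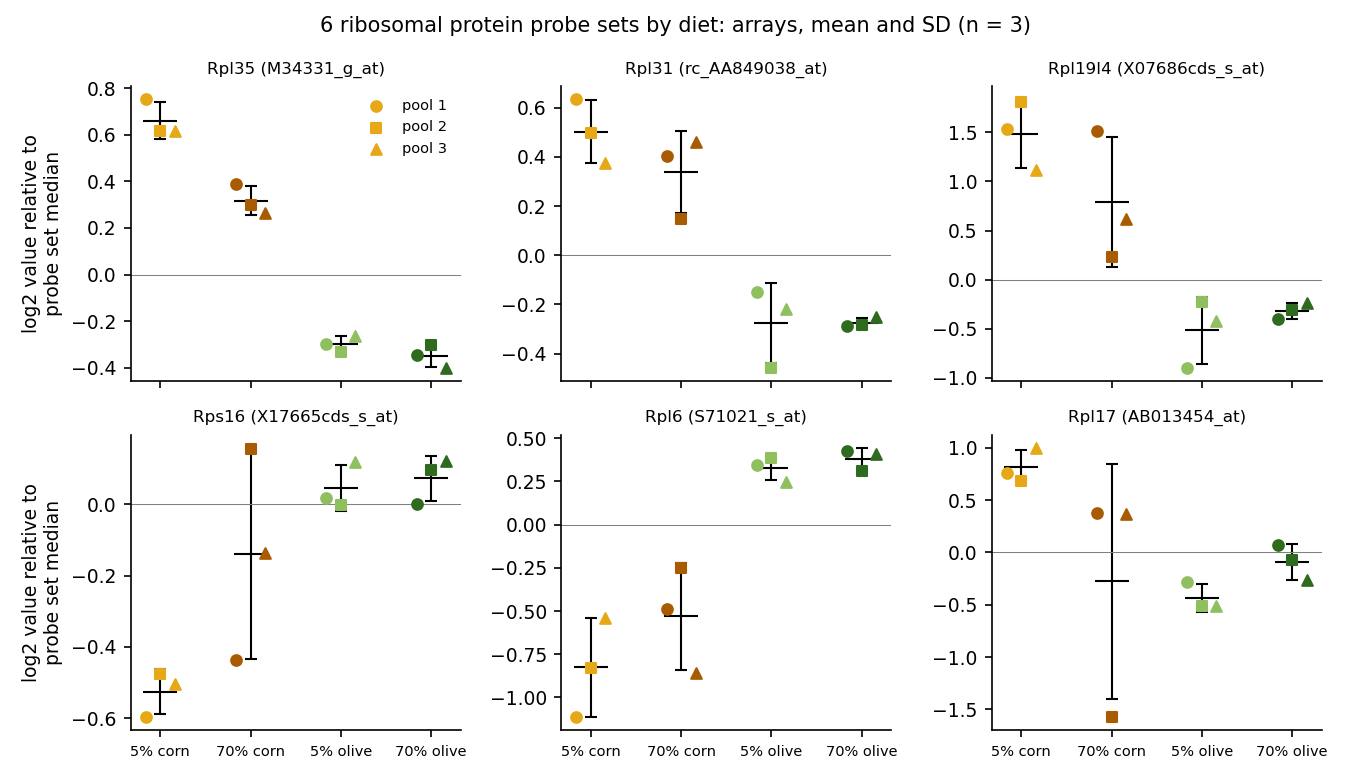
Log2 values of 6 ribosomal protein probe sets relative to their median on each array, by diet (symbols mark pools 1 to 3, horizontal bars the mean and vertical bars the SD, n = 3). Rpl35, Rpl31 and Rpl19l4 are above 0 on the 6 corn oil arrays and below 0 on the 6 olive oil arrays, Rpl6 is the reverse, and pool 2 of 70% corn oil stands apart in Rps16 (0.16) and Rpl17 (-1.57).

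At 70% fat the same direction prevailed with fewer calls. Of the 64 members, 11 were called higher and 2 lower with corn than with olive oil, against 3.96% and 4.55% of all probe sets and 8.51% in either direction, and the median difference was 0.13, against 0.015 over all. The arrays of both diets did not overlap for 20 members in the higher direction and 5 in the lower, against 13.8% and 13.4% of all probe sets. Of the 40 ribosomal probe sets with several symbols 7 were higher and 1 lower (17.5% and 2.5%). The large subunit had 8 higher and 1 lower, and the small subunit 3 higher and 1 lower. The 13 probe sets called at 70% fat were all called at 5% fat with the same sign, and a further 19 were called at 5% fat alone. The differences of the 2 contrasts share no arrays, though the index differs between oils in both. Their SE are shared, from a model fitted to all arrays, so the calls are not independent. Leaving out a single 70% fat array moved the 32 calls at 5% fat. The count ran from 27 (without pool 1 of 70% olive oil) to 37 (without pool 3 of 70% corn oil). The share called over all probe sets in these fits is not given here. Over all members, 51 of 64 had the same sign at both fat levels, as shown in the plot of oil and fat differences. Neither agreement was counted over all probe sets.

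Rpl35 stood at 0.39, 0.30 and 0.27 on the 70% corn oil arrays and at -0.34, -0.30 and -0.40 on the 70% olive oil arrays. It differed by 0.67 ± 0.08, or 1.59-fold (adjusted p = 0.00131). Rpl31 differed by 0.61 ± 0.11 (adjusted p = 0.00759), with 0.40, 0.15 and 0.46 against -0.29, -0.28 and -0.25. Rpl36, at 0.17, 0.16 and 0.20 against -0.28, -0.17 and -0.24, differed by 0.41 ± 0.08 (adjusted p = 0.00948). None of these 3 genes had overlapping groups, and they are the 3 of 13 whose call held under every alternative except the index. Rpl6 was lower by -0.91 ± 0.16 on the same probe set as before (adjusted p = 0.00646), with -0.49, -0.25 and -0.86 against 0.43, 0.31 and 0.41, a call lost with 1 value per gene. Rps3 was lower by -0.32 ± 0.08.

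The remaining calls at 70% fat were Rpl19l4 at 1.11 ± 0.28, Rps4x-ps9 at 0.67 ± 0.17, Rpl22 at 0.50 ± 0.11, Rpsa at 0.48 ± 0.10, Rpl23 at 0.46 ± 0.12, Rpl11 at 0.39 ± 0.11, Rps10 at 0.37 ± 0.09 and Rpl13a at 0.34 ± 0.08. Rpsa is both a small subunit protein and a laminin receptor, and Rpl11 joins Rpl5 and 5S rRNA in a particle that binds Mdm2. Pool 2 of 70% corn oil, the array whose index was closest to the olive oil arrays, had the lowest of the 3 corn oil values in 8 of the 11 members called higher. Without this array 16 members were called higher and 3 lower, while the share called over all probe sets went from 8.51% to 13.3%. Leaving out pool 1 or pool 3 of 70% corn oil gave 6 or 8 calls in place of 13. Leaving out pool 1, pool 2 or pool 3 of 70% olive oil gave 5, 6 or 4. It was 7 genes with 1 value per gene, 6 with trend and robust moderation and 4 on the arrays of both groups alone, and 0 with the index. Except for the fits with the index and without pool 2 of 70% corn oil, the share called over all probe sets is not given here. A loss particular to the members can therefore not be told from a loss over the whole array.

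**Figure D3:**
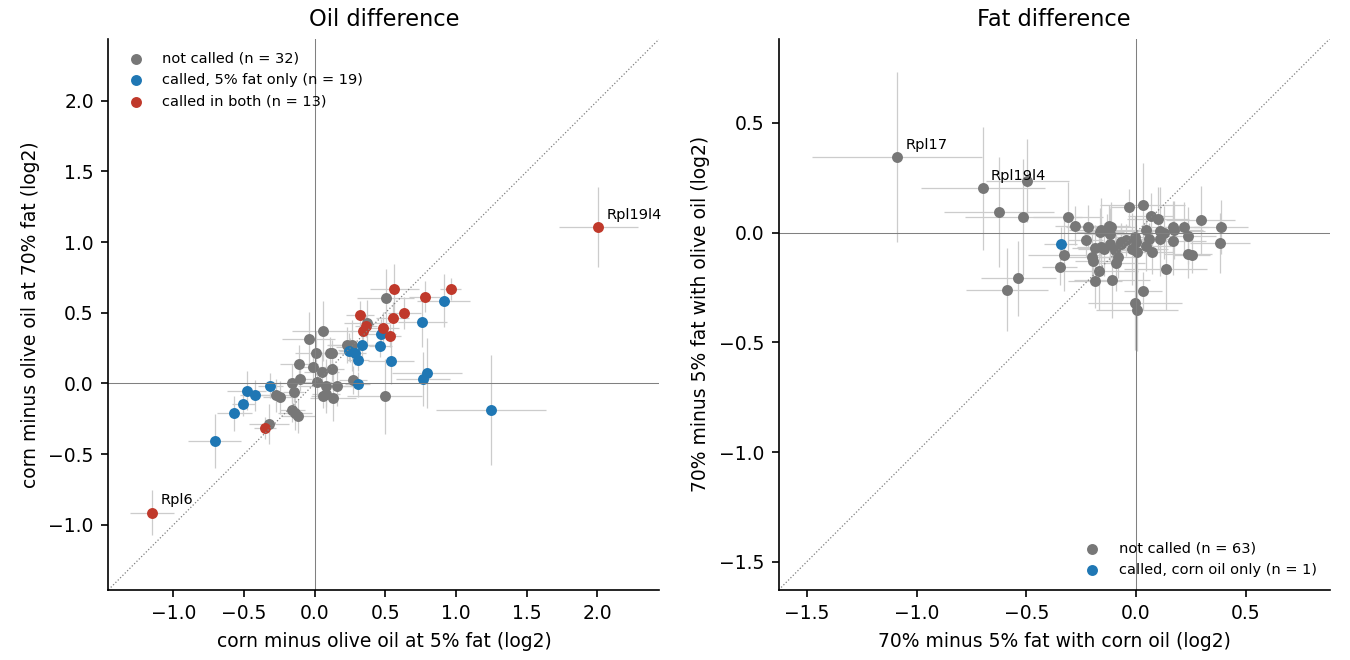
Each point is 1 of the 64 ribosomal protein probe sets with its SE in both directions. Left, the difference between corn and olive oil at 5% fat (horizontal) and at 70% fat (vertical), in log2. Right, the difference between 70% and 5% fat with corn oil (horizontal) and with olive oil (vertical). The dotted line marks equal differences. On the left 13 probe sets are called at both fat levels and 19 at 5% fat alone, and on the right 1 is called, with corn oil.

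Probe sets of 1 gene often disagreed about the oil. In 10 genes the array holds a pair of member probe sets named for the same GenBank sequence, one ending in _at and the other in _g_at. At 5% fat the pair had opposite signs in 8 of the 10 genes, and at 70% fat in 6. Such pairs of other genes were not counted. Rpl23, a large subunit protein that also binds Mdm2, was called both ways at 5% fat, at -0.42 ± 0.11 (adjusted p = 0.0175) on X58200mRNA_at and at 0.55 ± 0.12 (adjusted p = 0.00589) on X58200mRNA_g_at. Rpsa was called both ways as well, at 0.32 ± 0.10 (adjusted p = 0.0404) on D25224_at and at -0.48 ± 0.14 (adjusted p = 0.027) on D25224_g_at. The first of these calls was lost when any 1 of 10 arrays was left out (adjusted p up to 0.13) and the second when any 1 of 5 was. Rps15, whose 3 probe sets come from more than 1 sequence, was the third gene called in both directions, at 0.28 ± 0.08 and at -0.71 ± 0.19. Its calls were lost when any 1 of 4 arrays and any 1 of 2 arrays were left out, as was the lower call of Rpl23 with any 1 of 3.

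Within an array the gap between both probe sets of a pair is free of that array's overall scaling. It is not free of the array's spread or RNA quality. The 3'/5' index separated the same 6 corn oil from the same 6 olive oil arrays, and its part in the gaps was not tested. For Rpl23 the _g_at value minus the _at value ran from 0.18 to 1.17 over the 6 corn oil arrays and from -0.20 to -0.14 over the 6 olive oil arrays. For Rpl35 it ran from 0.21 to 0.57 and from -0.27 to -0.013, and for Rps6 from 0.077 to 0.61 and from -0.37 to -0.12. Rpsa went the other way, from -0.97 to -0.054 with corn oil and from 0.16 to 0.25 with olive oil. The 6 corn oil gaps did not overlap the 6 olive oil gaps in 7 of the 10 genes, 6 of them with the larger gap in corn oil. Gaps were not computed for pairs outside the members, so whether this is particular to ribosomal protein genes is unknown here. A gap that differs between oils shows unequal change of both probe sets, and which of them follows the transcript was not tested. Rpl24, Rpl21 and Rpl3l, the muscle paralog of Rpl3, had overlapping gaps.

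Among the 17 genes with more than 1 member probe set, 9 had probe sets of opposite sign that lay over 0.5 apart in the oil difference at 5% fat. They were Rpl3, Rpl6, Rpl11, Rpl23, Rpl24, Rpl26, Rps6, Rps15 and Rpsa. Rpl6 spanned the widest range, from -1.15 to 0.50, and Rpl26 the narrowest, from -0.25 to 0.30. At 70% fat 6 genes did so, namely Rpl3, Rpl6, Rpl23, Rps6, Rps15 and Rpsa, with Rpl6 at -0.91 and 0.61 and Rpl3 at -0.15 and 0.43. In the corn oil fat contrast 2 genes did, Rpl21 (from -0.62 to 0.17) and Rpl24 (-0.59 and 0.0065), and neither had a called probe set there.

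**Figure D4:**
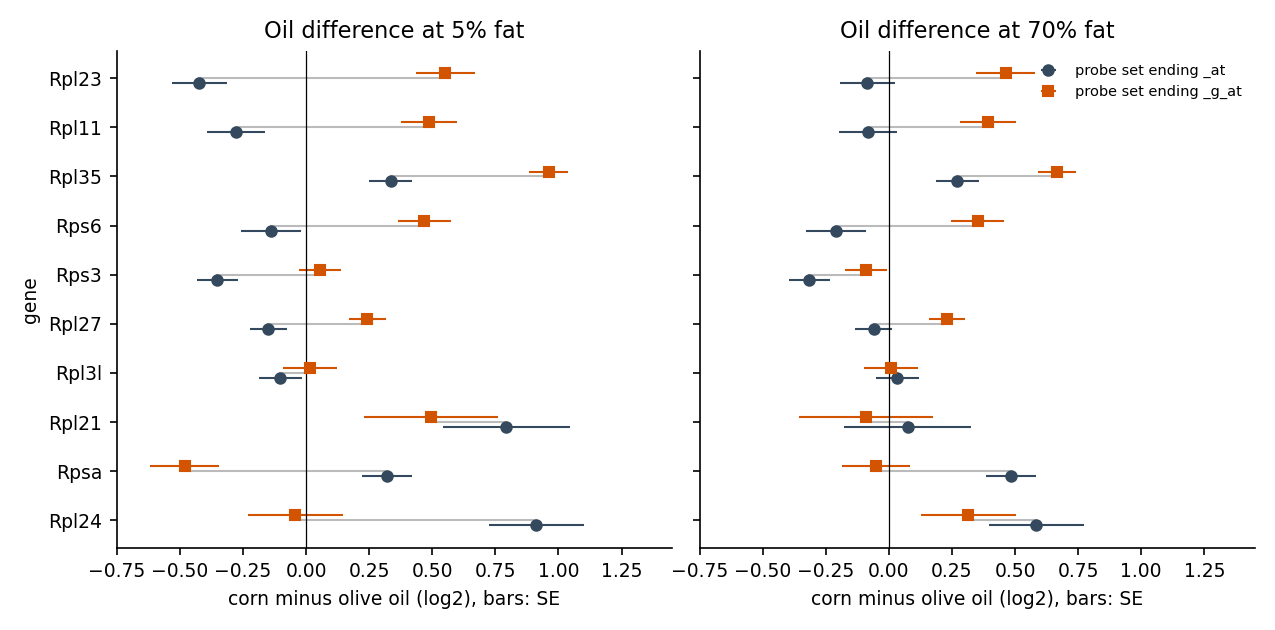
Difference between corn and olive oil (log2, bars are SE) for 10 genes with a pair of probe sets named for the same sequence, at 5% fat (left) and at 70% fat (right). Circles are probe sets ending in _at and squares those ending in _g_at. At 5% fat the circle and the square lie on opposite sides of 0 in 8 of 10 genes, among them Rpl23, Rpl11, Rps6 and Rpsa.

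Few ribosomal protein values passed the test between fat levels. With corn oil 1 of 64 members was called lower at 70% than at 5% fat and 0 higher, against 0.801% lower and 1.3% higher among all probe sets (2.11% in either direction), so the share of members called is near the background. Before adjustment 16 members had a limma p under 0.05, a count not made over all probe sets. The arrays did not overlap for 3 members in the higher direction and 11 in the lower, where all probe sets gave 8.51% and 10.4%. The call was Rpl35 on M34331_g_at, which went from 0.75, 0.62 and 0.61 at 5% fat to 0.39, 0.30 and 0.27 at 70% fat. It fell by 0.34 ± 0.08 (adjusted p = 0.0407), on arrays whose index differed by -0.56. The call was lost with the index, with a second quantile normalization, with trend and robust moderation, with the pool number (adjusted p = 0.0519), with 1 value per gene, on the corn oil arrays alone and when any 1 of 10 arrays was removed (the adjusted p reached 0.14). Rpl13a, often used as a reference gene, lay just outside the threshold at -0.35 ± 0.08 (adjusted p = 0.05001). It stood at 0.54, 0.48 and 0.32 at 5% fat and at 0.18, 0.04 and 0.08 at 70% fat, with no overlap. The median member difference was -0.076, against -0.0075 over all probe sets, with 25 members above 0 and 39 below.

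With olive oil, on arrays whose index differed by 0.018, 0 of 64 members were called by limma, against 0.435% of all probe sets (0.126% higher and 0.309% lower). Before adjustment 1 member had a limma p under 0.05, a count not made over all probe sets. The arrays did not overlap for 5 members in the higher direction and 7 in the lower, where all probe sets gave 12.8% and 7.01%. The member with an unadjusted p under 0.05 was Rpl18, at 0.29, 0.24 and 0.22 with 5% fat and at -0.06, 0.05 and -0.05 with 70% fat. Its difference was -0.27 ± 0.09 (adjusted p = 0.34), with no overlap between the groups. The next smallest p-values belonged to Rpl13a at -0.16 ± 0.08, Rpl24 at -0.35 ± 0.19, Rps27l at -0.22 ± 0.12 and Rpl35 at -0.13 ± 0.08, with adjusted p from 0.703 to 0.777. The members ranged from -0.35 to 0.35, and their median was -0.035, against 0.028 over all probe sets. With 1 array left out the member median ran from -0.071 (without pool 2 of 5% olive oil) to -0.012 (without pool 3 of 5% olive oil). Again 25 lay above 0 and 39 below. The count was also 0 in every alternative that was run.

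In the olive oil fat contrast, 1 array held several of the lowest values. Pool 3 of 70% olive oil stood at -0.89 for Rpl19, where the other 11 arrays lay between -0.36 and 0.29, and at -0.83 and -0.88 for both probe sets of Rpl24. It also stood at -0.69 for Rpl35a and at -0.59 for a probe set of Rps29. This array held the lowest of the 12 values for 16 of the 64 members and the highest for 3. Pool 1 of 5% corn oil also held the lowest for 16, and it held the highest for 15. These counts were not made over all probe sets, so they are not a trait of the members. The SD over all probe sets was 0.42 on pool 1 of 5% corn oil and 0.23 on pool 3 of 70% olive oil. The index of pool 3 of 70% olive oil, -0.39, lay within the range of the other olive oil arrays. Without this array the difference of Rpl24 on rc_AA817997_g_at was -0.066 in place of -0.35.

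The interaction, that is the fat effect with corn oil minus that with olive oil, was called for 0 of 64 members by limma and for 0% of all 8740 probe sets. Before adjustment 9 members had a limma p under 0.05, a count not made over all probe sets. The smallest p-values belonged to Rpl3 (0.36 ± 0.12), Rpl35 (-0.29 ± 0.11), Rpl30 (-0.73 ± 0.27), Rpl17 (-1.43 ± 0.55) and Rpl18 (0.30 ± 0.12), with adjusted p from 0.34 to 0.385. Rpl30 stood at 0.26, 0.53 and 0.60 with 5% corn oil and at 0.33, -0.59 and 0.17 with 70% corn oil, where pool 2 was the low array, as it was for Rpl17 and for a pair of Rpl21 probe sets (-0.76 and -0.83). Without that array the interaction of Rpl30 was -0.45 and that of Rpl17 -0.79.

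Some members are followed in many studies and are given here whatever their change. Rplp0, the protein at the base of the stalk that recruits elongation factors and a common reference gene, stood at -0.56, -0.18 and -0.17 with 5% corn oil and at 0.03, -0.0042 and 0.03 with 5% olive oil. Its difference of -0.32 ± 0.14 did not pass (adjusted p = 0.139), nor did its fat differences of 0.099 ± 0.14 with corn oil and 0.064 ± 0.14 with olive oil. Rpl5 lay at 0.13 for the oil at 5% fat (adjusted p = 0.638), and its partner Rpl11 at 0.49 ± 0.11 on one probe set (adjusted p = 0.00943) and at -0.28 ± 0.12 on the other (adjusted p = 0.119). Rpl13a was higher with corn oil on 1 probe set at both fat levels, by 0.53 ± 0.08 and 0.34 ± 0.08, and lay at 0.11 and 0.21 on the other, which was not called. The probe set of Rps27l and the pair of Rps2-ps1 were not called in any of the 5 contrasts.

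Other parts of the translation machinery gave a mixed picture in the oil contrasts, and their counts have to be read against the 10.1% higher and 9.36% lower of all probe sets at 5% fat and the 3.96% and 4.55% at 70% fat. At 5% fat 2 of 17 probe sets for mitochondrial ribosomal proteins, which are encoded apart from the cytosolic set, were higher with corn oil and 1 lower, with a median of 0.13. At 70% fat 2 were higher and 0 lower. The median was 0.27, against 0.015 over all probe sets and 0.13 for the cytosolic members. Of the 17, 14 lay above 0. The arrays of both diets did not overlap for 10 of them in the higher direction and 0 in the lower, where all probe sets gave 13.8% and 13.4%. Higher values with corn oil at 70% fat were thus not particular to the cytosolic set. Mrpl38 was higher on 1 probe set, by 0.50 at 5% fat (adjusted p = 0.00423) and by 0.62 at 70% fat (adjusted p = 0.0052), while its second probe set lay at -0.17 and -0.0060. Of 17 probe sets for elongation factors and other transcripts with a terminal oligopyrimidine tract, 3 were higher and 3 lower at 5% fat, with a median of -0.037. The largest of the higher calls was Vim, by 1.05 (limma adjusted p = 0.00137). The others were 1 probe set of Hnrnpa1, by 0.53 (limma adjusted p = 0.049), and Naca, a chaperone of nascent chains, by 0.50 (adjusted p = 0.0184). Eef2, the factor that moves the ribosome along, was lower on 3 of its 4 probe sets, by -1.56, -1.86 and -0.76. At 70% fat 1 of the 17 was higher and 2 were lower.

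Of 22 probe sets for initiation factors 5 were higher and 3 lower at 5% fat, and 1 and 2 at 70% fat. With lists this small, a difference of 1 or 2 probe sets from the background is not a result about the list. Eif4a2 was lower on both of its listed probe sets, by -2.05 and -1.91 at 5% fat and by -1.14 and -1.02 at 70% fat. The higher calls at 5% fat were in Eif5b, Eif2s1, Eif3b and Eif2b3. Eif4ebp1, the mTOR target that holds back cap-dependent initiation, was lower on 1 of its 3 probe sets at 5% fat, by -1.90 (adjusted p = 0.00589), and lay at -0.41 and -0.17 on the others. Of 17 probe sets for ribosome biogenesis 3 were higher and 1 lower at 5% fat and 0 were called at 70% fat. Rack1, a scaffold on the small subunit, lay at 0.093 at 5% fat (adjusted p = 0.616). Among 14 probe sets for signalling to ribosomal protein synthesis, 1 was higher and 4 lower at 5% fat. The lower calls were Akt1 on 1 probe set (-0.56), Akt2 on 2 (-0.64 and -0.51) and the Eif4ebp1 probe set already named. Mtor, the kinase of that pathway, was the higher call, by 0.56 (adjusted p = 0.00408). From 5% to 70% corn oil Mtor fell by 0.51 (adjusted p = 0.0402), on arrays whose index differed by -0.56. It was the 1 call of the 14 there, against 2.11% of all probe sets. In the olive oil fat contrast 0 probe sets of these lists were called.

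The probe sets outside the members whose values over the 12 arrays were most like the mean of the members belonged to Slc22a7, a liver anion transporter (Pearson r = 0.97), Fkbp2 (0.95), Nfkbia (0.94), Aldh5a1 (0.93) and Cfd (0.93), followed by Calcrl, Lamp1, Rbmx, Ptpn6 and Mvp (0.92 to 0.91). The arrays fall into corn and olive oil clusters that also differ in the index, and likeness over them is a description of that split.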

How the data were processed

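Per the labels' protocols, 8 ug of total RNA from each liver pool was labelled with biotin. The table of the authors holds log2 values of 8799 probe sets. GCOS and RMA are named, without versions, per the submitters' processing notes. The base of the logarithm is not written in the table and was taken as 2. Medians across the 12 arrays were 0 (tolerance 1e-06) in 100% of probe sets, so values are differences and a filter on low values could not be applied. Array medians ran from -0.027 to 0.062, and there were 0 columns of other samples.

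After 59 array controls were left out, limma 3.58.1 in R 4.3.3 was fitted to 8740 probe sets with a mean per diet and 8 residual degrees of freedom, and was tested on simulated data. Symbols come from the platform annotation and were updated to GRCr8 through the gene identifier for 6985 of 7006 probe sets with 1 symbol; 308 carried several and 1426 none. Sequences are from RefSeq (GRCr8). Members and lists were chosen with earlier results of these data known. By a fixed rule the text names, for each contrast, up to 10 called members in each direction, or the 5 smallest p-values where none was called, a fixed set of members, and genes whose probe sets disagree. The further called members of the oil contrasts, and the genes named from other lists, were chosen after their values were seen.

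The alternatives comprised another quantile normalization, arrays centred on their medians, trend with robust moderation, the pool number as a block, the 3'/5' index as a covariate, the mean of a gene's probe sets, the arrays of the compared groups alone and leaving out each array.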

Additional observations from a re-analysis of the deposited data

Results flagged for a closer look

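In 2 of the 64 members the arrays of both fat levels separated one way with corn oil and the opposite way with olive oil. This pattern was not counted over all probe sets, so the count is not a result about the members. Separation within 1 oil was common among all probe sets. It held for 8.51% higher and 10.4% lower with corn oil, and for 12.8% and 7.01% with olive oil. Rpl17 was at -1.09 ± 0.39 with corn oil (0.76, 0.68 and 0.996 at 5% fat, 0.38, -1.57 and 0.37 at 70% fat) and at 0.35 ± 0.39 with olive oil. Neither difference was called (limma adjusted p = 0.159 and 0.918), nor was the difference between them (adjusted p = 0.363), and without pool 2 of 70% corn oil the corn oil value was -0.44. Rpl3 on X62166cds_s_at was at 0.25 ± 0.08 with corn oil and at -0.10 ± 0.08 with olive oil (adjusted p = 0.124 and 0.845). The difference between them, 0.36 ± 0.12, had an adjusted p of 0.34. No group was tested for outlying arrays, since each holds 3.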

How the results depend on the processing

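The counts of called members in the olive oil fat contrast and the interaction were 0 in every alternative run. For the corn oil fat contrast the count of 1 became 0 with a second quantile normalization, trend and robust moderation, the index, 1 value per gene and the corn oil arrays alone. It ran from 0 to 4 when an array was left out. The share called over all probe sets moved as well, from 2.11% to 0.584% after a second quantile normalization. It was 0.675% without pool 1 and 3.98% without pool 3 of 5% corn oil. For the oil at 5% fat the count of 32 became 0 with the index and 17 with 1 value per gene, and ran from 17 to 37 when an array was left out. For the oil at 70% fat the count of 13 became 0 with the index, 7 with 1 value per gene and 6 with trend and robust moderation. It was 4 on the arrays of both groups alone and ran from 4 to 19 when an array was left out. For both oil contrasts most of these counts stand here without the share called over all probe sets in the same fit. The median of the members moved by more than the spread between arrays after a second quantile normalization in the corn oil fat contrast (-0.022), for the oil at 5% fat (0.15) and in the interaction (0.035, from -0.010), and for the oil at 5% fat also with the index (0.057) and 1 value per gene (0.12). For the oil at 70% fat it ran from 0.093 to 0.18 when an array was left out. With the index as a covariate these calls reversed at 5% fat: Rpl17 (-1.38), Rpsa (-0.10 on D25224_at, 0.014 on D25224_g_at), Rpl30 (-0.20), Rps4x-ps9 (-0.22), Rpl21 (-0.43), Rps16 (0.11), Rpl23 (-0.25) and Rpl11 (-0.19), and at 70% fat Rpl23 (-0.053) and Rpl11 (-0.041), none of them called there. With 1 value per gene Rpsa (-0.081), Rps15 (-0.090) and Rpl23 (0.065) reversed at 5% fat, since their probe sets have opposite signs. Apart from the mean over probe sets and the smaller number of arrays, the cause of these changes was not tested.

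Deviations from the diet mean correlated from -0.19 to 0.23 between arrays with the same pool number. Arrays with different numbers gave -0.30 to 0.28. With 3 arrays per diet these correlations cannot show whether the numbers pair the pools. With the pool number as a block the counts were 1, 0, 32, 11 and 0 for the corn oil fat, olive oil fat, 5% fat oil, 70% fat oil and interaction contrasts. Rpl35 was not the 1 member called with the block in the corn oil fat contrast (adjusted p = 0.0519). With centred values the signal over background is unknown.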
